A study of Mus musculus with 3 samples.

Results

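Metallothioneins and their partners in zinc handling were followed across the 3 arrays of the study. The genes are Mt1 and Mt2, which encode metallothioneins, Mtf1, which encodes the transcription factor that senses zinc, and Slc30a1, which encodes a zinc exporter of the plasma membrane. All 10 probe sets annotated to these 4 genes were taken, of 45101 probe sets and 18194 named genes in all. The genes were selected on measured values, namely because the signal of Mt2 was lower on both p53-null arrays than on the wild-type array. The values of Mt2 against WT are therefore a description and support nothing further.

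The cells were mouse LSK cells, the fraction of blood-forming cells, defined by surface markers, in which stem cells and early progenitors are found. There was 1 Affymetrix array for each of 3 genotypes, namely wild type (WT), p53 -/- (p53 KO) and p53 -/- Mef -/- (DKO), where Mef is the ETS factor encoded by Elf4. Both knockout groups thus lack p53, and all 3 groups are labelled LSK. Strain, age, sex, the alleles' construction and the number of animals behind each array are not given in the sources used here. With 1 array per genotype no difference has an error or a test, and each value compares single arrays. The arrays differed somewhat in their dim range, where the median signal of all probe sets was 98.0 in WT, 105 in p53 KO and 129 in DKO cells.

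Metallothioneins are small proteins rich in cysteine that bind zinc and copper and take up toxic metals such as cadmium. When free zinc rises, Mtf1 binds metal response elements in the promoters of Mt1, Mt2 and Slc30a1 and raises their transcription, so that zinc is buffered by the former and pumped out by the latter. Mt1 and Mt2 are expressed in most mouse tissues and also respond to glucocorticoids and oxidative stress, whereas Mt3 is known from brain and Mt4 from stratified epithelia. Transporters of the Slc30 family move zinc out of the cytosol and those of the Slc39 family move it in.

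The promoter windows of the 3 metal-responsive genes are shown because metal response elements are the feature Mt1, Mt2 and Slc30a1 are known to share. The sequences are from RefSeq (build GRCm38.p6) and run from 250 bases before to 50 bases after the gene start on the plus strand, at chr8:94172368-94172667 for Mt2, chr8:94178839-94179138 for Mt1 and chr1:191906531-191906830 for Slc30a1. Capitals mark matches to the core of the metal response element, searched as TGCACNC and TGCGCNC on both strands.
Mt2: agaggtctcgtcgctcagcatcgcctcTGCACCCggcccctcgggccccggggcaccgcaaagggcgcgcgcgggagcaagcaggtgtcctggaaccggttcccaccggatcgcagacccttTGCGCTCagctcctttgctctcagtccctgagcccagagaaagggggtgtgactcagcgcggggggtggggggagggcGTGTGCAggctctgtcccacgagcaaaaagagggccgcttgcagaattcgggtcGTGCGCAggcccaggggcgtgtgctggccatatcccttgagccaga
Mt1: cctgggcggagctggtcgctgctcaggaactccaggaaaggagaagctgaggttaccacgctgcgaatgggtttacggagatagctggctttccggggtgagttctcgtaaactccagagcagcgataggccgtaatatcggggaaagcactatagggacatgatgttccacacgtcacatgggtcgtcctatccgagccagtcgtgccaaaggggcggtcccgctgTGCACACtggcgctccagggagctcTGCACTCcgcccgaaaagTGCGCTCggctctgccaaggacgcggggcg
Slc30a1: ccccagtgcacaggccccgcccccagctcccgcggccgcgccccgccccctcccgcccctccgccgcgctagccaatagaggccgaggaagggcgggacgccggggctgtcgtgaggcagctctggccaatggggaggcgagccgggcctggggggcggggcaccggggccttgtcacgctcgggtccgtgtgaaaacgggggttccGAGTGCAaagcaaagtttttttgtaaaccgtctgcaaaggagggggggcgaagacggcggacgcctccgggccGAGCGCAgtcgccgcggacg

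The Mt2 window held 4 matches, starting at bases 28, 123, 201 and 255 of the window, the last pair on the minus strand. The Mt1 window held 3, all on the plus strand and starting at bases 228, 253 and 271. The Slc30a1 window held 2, at bases 208 and 281, both on the minus strand. The matches at bases 253 and 271 for Mt1, 255 for Mt2 and 281 for Slc30a1 lie after the annotated gene start. Sequence outside the windows was not searched, so these are not counts for a whole promoter. Among 32851 promoter windows of the same length, 25.7% held at least 1 match, 7.11% at least 2, 1.97% at least 3 and 0.517% at least 4. The Mtf1 window had 0 matches, which says only that these letters are not in that window. A match is a description of the sequence and no evidence of binding in these cells.

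Both metallothionein genes had their highest signal on the WT array. Signals are intensities on a linear scale as deposited, and values under 110.4, the median of all signals, were treated as that floor before log2 differences were taken. Mt2 had a signal of 5473 in WT cells, 795 in p53 KO cells and 1041 in DKO cells. The WT array stood far above both others, which lay close together. The log2 difference was -2.78 for p53 KO against WT and -2.39 for DKO against WT, or 6.89-fold and 5.26-fold lower.

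Mt1, whose product has the same metal-buffering role, gave a signal of 3873 in WT cells, 917 in p53 KO cells and 894 in DKO cells by its brighter probe set (1422557_s_at). WT was again far above both knockouts, which were nearly equal. The log2 differences were -2.08 and -2.11, or 4.22-fold lower on p53 KO and 4.33-fold lower on DKO. This probe set is annotated to Mt1 alone, but its name ends in _s_at, a suffix of probe sets whose probes can match more than 1 transcript. Whether Mt2 message adds to the Mt1 signal was not tested. The other Mt1 probe set (1451612_at) was below the floor on every array, at 43.7 in WT, 21.6 in p53 KO and 24.3 in DKO cells, and gives no measured difference.

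Against the background of each comparison, 3.19% of 12597 measured genes were at least 2-fold lower on p53 KO than on WT and 3.1% were at least 2-fold lower on DKO than on WT. A gene counted as measured when 1 array or more reached the floor. Ordered from the lowest difference, Mt2 was at rank 3 and Mt1 at rank 14 for p53 KO against WT, and at ranks 25 and 46 for DKO against WT. Both comparisons use the same WT array, so they are not independent of each other, and a high value on that 1 array cannot be told apart from low values in both knockout genotypes. In all, 119 genes (0.945%) were at least 2-fold lower on both knockout arrays, and 9 of them, Mt1 and Mt2 included, were at or below the values of Mt1 in both comparisons. Mt1 itself sets that cutoff and Mt2 was selected on its values, so their place among the 9 is a description only. In bulk RNA, fewer cells that express a gene and less message per cell cannot be told apart.

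Between the knockout arrays the metallothioneins were close. The log2 difference for DKO against p53 KO was 0.39 for Mt2 and -0.04 for Mt1. Across measured genes the robust SD between probe sets of the same gene was 0.36 in that comparison, beside 0.30 for p53 KO and 0.35 for DKO when each was set against WT. That spread is between probes on the same arrays and leaves out differences between samples of 1 genotype.

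**Figure D1:**
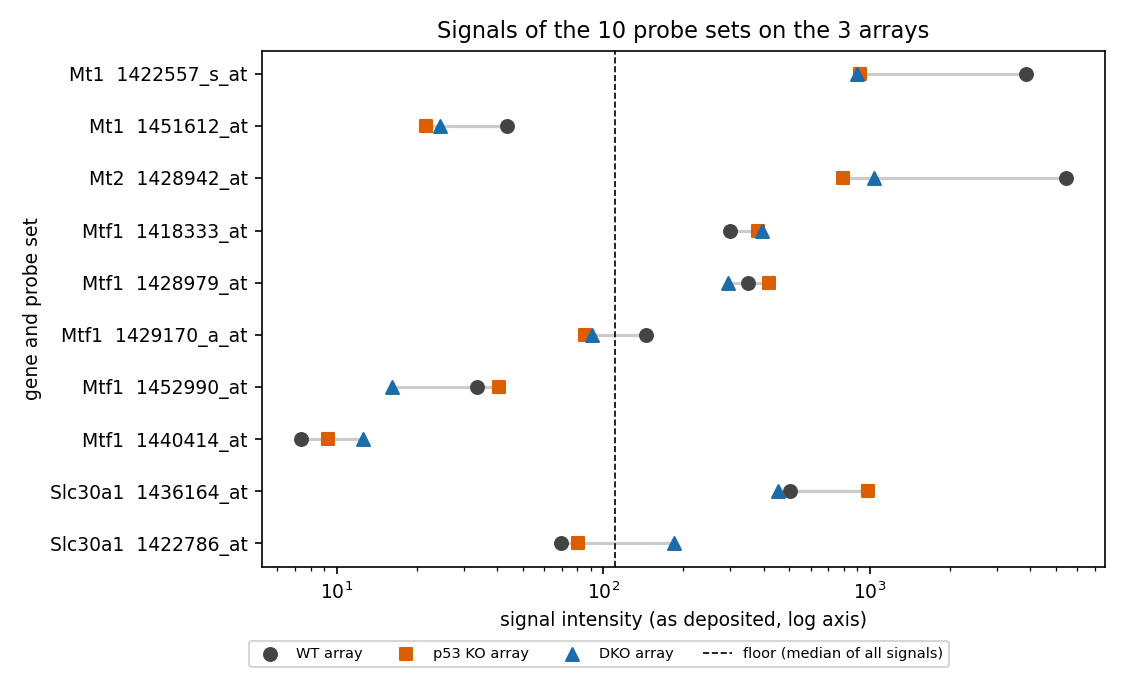
Signal intensity as deposited (log axis) for each probe set of Mt1, Mt2, Mtf1 and Slc30a1, with 1 point per array and the floor of 110.4 as a dashed line. The WT points of Mt2 (5473) and of the brighter Mt1 probe set (3873) stand apart from the knockout points, whereas the points of Mtf1 and Slc30a1 above the floor lie closer together.

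Mtf1, the zinc sensor, gave values that differed between its probe sets. By its main probe set (1418333_at) the signal was 300 on the WT array, 381 on p53 KO and 395 on DKO, with log2 differences from WT of 0.34 and 0.40. A further probe set (1428979_at) gave 350.0, 419 and 295 on the same arrays, with differences of 0.26 and -0.25. The probe sets thus placed p53 KO slightly over WT and parted on DKO. Another probe set (1429170_a_at) reached the floor only on the WT array, at 145, and was lower by at least 0.39 on the log2 scale on both others. The remaining 2 of the 5 Mtf1 probe sets were below the floor on every array, with signals between 7.33 and 40.5. No Mtf1 probe set reached a 2-fold difference in a comparison where it was measured.

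Slc30a1, the exporter that Mtf1 also activates, had its highest signal on the p53 KO array. Its main probe set (1436164_at) gave 505 on WT, 984 on p53 KO and 453 on DKO. The WT and DKO arrays were close and the p53 KO array was higher, with log2 differences from WT of 0.96 on p53 KO and -0.16 on DKO. DKO was lower than p53 KO, with a difference of -1.12 that was past 2-fold, as were 5.93% of measured genes in that direction and 4.1% in the other. The other Slc30a1 probe set (1422786_at) disagreed, with 69.4 and 80.4 on WT and p53 KO, both below the floor, and 184 on DKO, which is higher by at least 0.74 on the log2 scale than on either. The 2 probe sets therefore give no common direction for Slc30a1 on the DKO array.

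**Figure D2:**
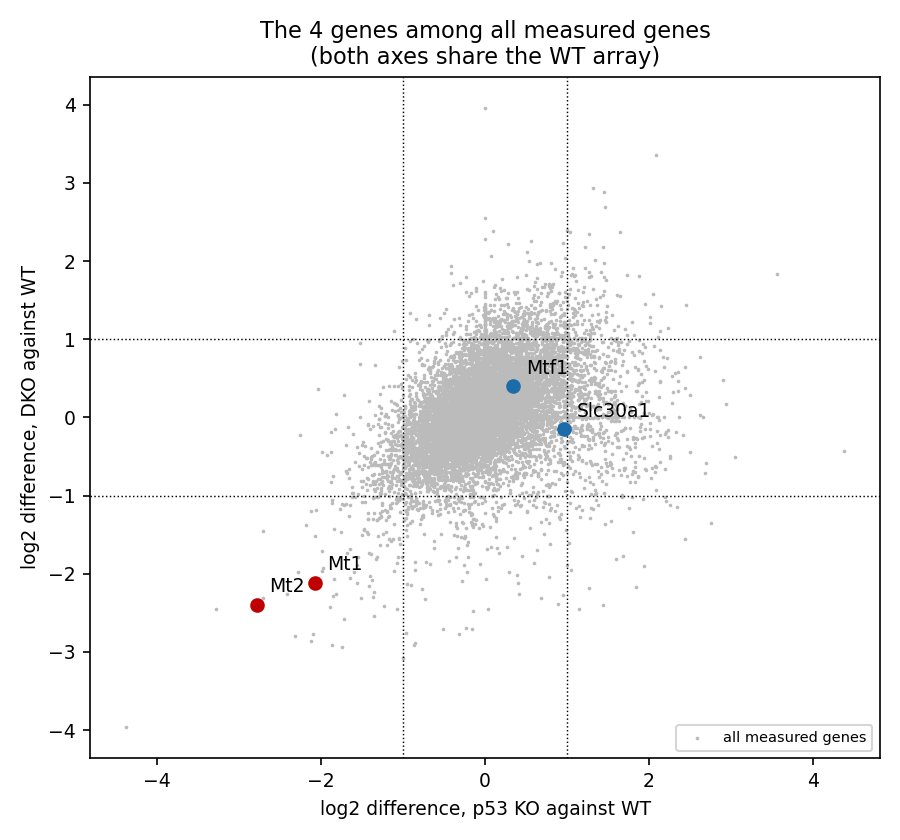
Each grey point is 1 of the 12597 measured genes, with its log2 difference for p53 KO against WT on the horizontal axis and for DKO against WT on the vertical axis, and dotted lines mark 2-fold. Mt1 (-2.08 and -2.11) and Mt2 (-2.78 and -2.39) lie at the lower left, while Mtf1 (0.34 and 0.40) and Slc30a1 (0.96 and -0.16) lie inside the lines. Both axes share the WT array, so the slope of the cloud is no result.

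In the mouse genome the metallothionein genes lie side by side on chromosome 8, in the order Mt4, Mt3, Mt2 and Mt1. In WT, p53 KO and DKO cells, in that order here and below, Mt3 signals were 33.0, 43.5 and 10.9 and Mt4 signals were 32.5, 16.5 and 11.9, all below the floor. Among the 3 named genes on each side that had a probe set, no measured gene was 2-fold different from WT on either knockout array. Over all measured genes 9.7% were on p53 KO and 8.31% on DKO, so an absence among so few genes is near the background. Nup93, a nuclear pore gene next to Mt1, had signals of 4191, 2777 and 2751, with log2 differences of -0.59 and -0.61. Nudt21, an mRNA 3' processing gene on the other side, had differences of -0.62 and -0.65. These genes were also lower on both knockouts, by less than the metallothioneins. Ogfod1 had differences of 0.47 and 0.73. Herpud1, a gene of the endoplasmic reticulum stress response, had differences of 0.72 and 0.04. Bbs2, a ciliary gene, had a signal between 93.7 and 119 on the 3 arrays, and Slc12a3 was below the floor.

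**Figure D3:**
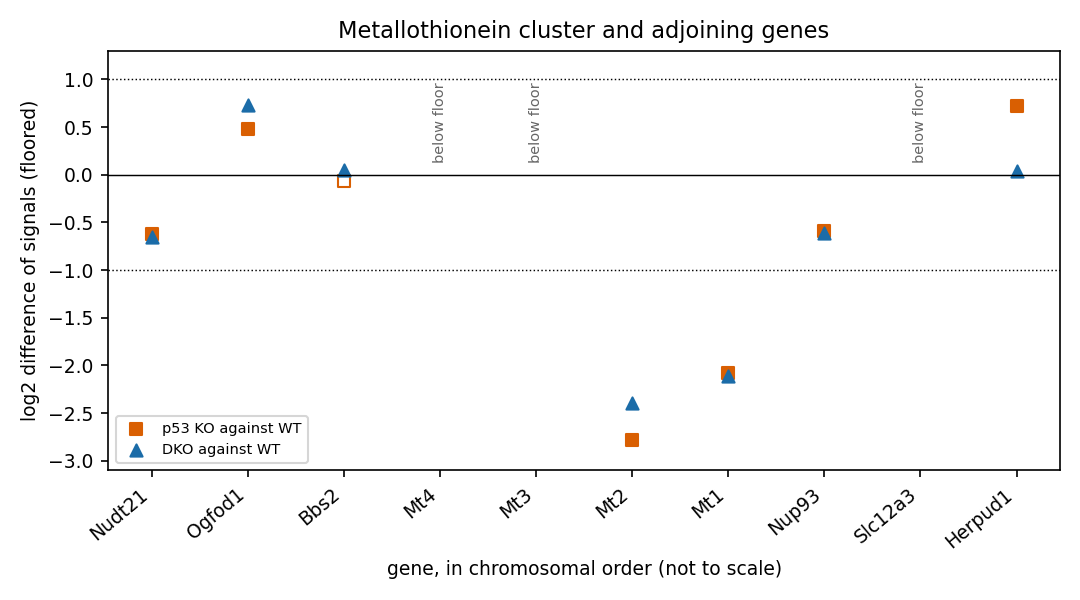
Log2 difference against WT for the metallothionein genes and 3 adjoining named genes on each side, in chromosomal order and not to scale, with squares for p53 KO and triangles for DKO and an open symbol where 1 array was below the floor. Mt2 and Mt1 lie below -2, the measured adjoining genes lie between -0.65 and 0.73, and Mt4, Mt3 and Slc12a3 were below the floor.

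Other zinc transporters showed no shared direction. Of 23 such genes beside Slc30a1, 18 were measured, and 1 was at least 2-fold different from WT on each knockout array, in both cases Slc30a4. Among all measured genes 9.7% differed by that much from WT on p53 KO and 8.31% on DKO, with 6.51% and 5.22% being higher, so a count of 1 in 18 is near the background. The median log2 difference of the 18 genes was 0.13 for p53 KO and 0.15 for DKO, beside 0 and 0.07 over all measured genes. Between the knockout arrays 0 of the 18 reached 2-fold, where 10% of measured genes did, and their median was 0.10 beside 0.11 over all genes.

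Among the exporters, Slc30a4, which loads zinc into vesicles, had signals of 280 on WT, 687 on p53 KO and 595 on DKO, with log2 differences from WT of 1.29 and 1.09. Both knockout arrays were thus higher, the opposite direction from Mt1 and Mt2. Slc30a5, a zinc transporter of the secretory pathway, was bright and level at 2980, 2873 and 3117. Slc30a9 had signals of 2685, 4132 and 2121, the p53 KO array being the highest. Slc30a6, the partner of Slc30a5, was at 1027, 697 and 794, and Slc30a7 at 666, 756 and 754. Of the 9 exporters beside Slc30a1, Slc30a2 and Slc30a8 were below the floor on every array.

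Of 14 importers, 11 were measured, and by their main probe sets 0 reached 2-fold in any of the 3 comparisons. Over all measured genes 9.7% did on p53 KO and 8.31% on DKO against WT, and 10% between the knockouts, so 0 of 11 is near the background. Slc39a6, which imports zinc at the plasma membrane, was nearest to it, at 2370 on WT, 2491 on p53 KO and 4628 on DKO (log2 differences of 0.07 and 0.97). A further measured Slc39a6 probe set (1424675_at) was at 171, 26.2 and 327. It was past 2-fold between the knockouts, higher on DKO than on p53 KO by at least 1.57. Slc39a10, the partner of Slc39a6, had signals of 2893, 2304 and 3772, so both were highest on the DKO array. Slc39a14, which also carries iron and is named here after its values were seen, had signals of 305, 273 and 468 (-0.16 and 0.62). Of its further probe sets the measured one (1425649_at) was past 2-fold, higher on DKO by 1.40 than on WT and by at least 1.41 than on p53 KO. The remaining 2 were below the floor. Slc39a1 was at 1375, 1013 and 1495, and Slc39a11 at 1234, 1410 and 1615. Slc39a2, Slc39a5 and Slc39a12 were below the floor on all arrays.

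**Figure D4:**
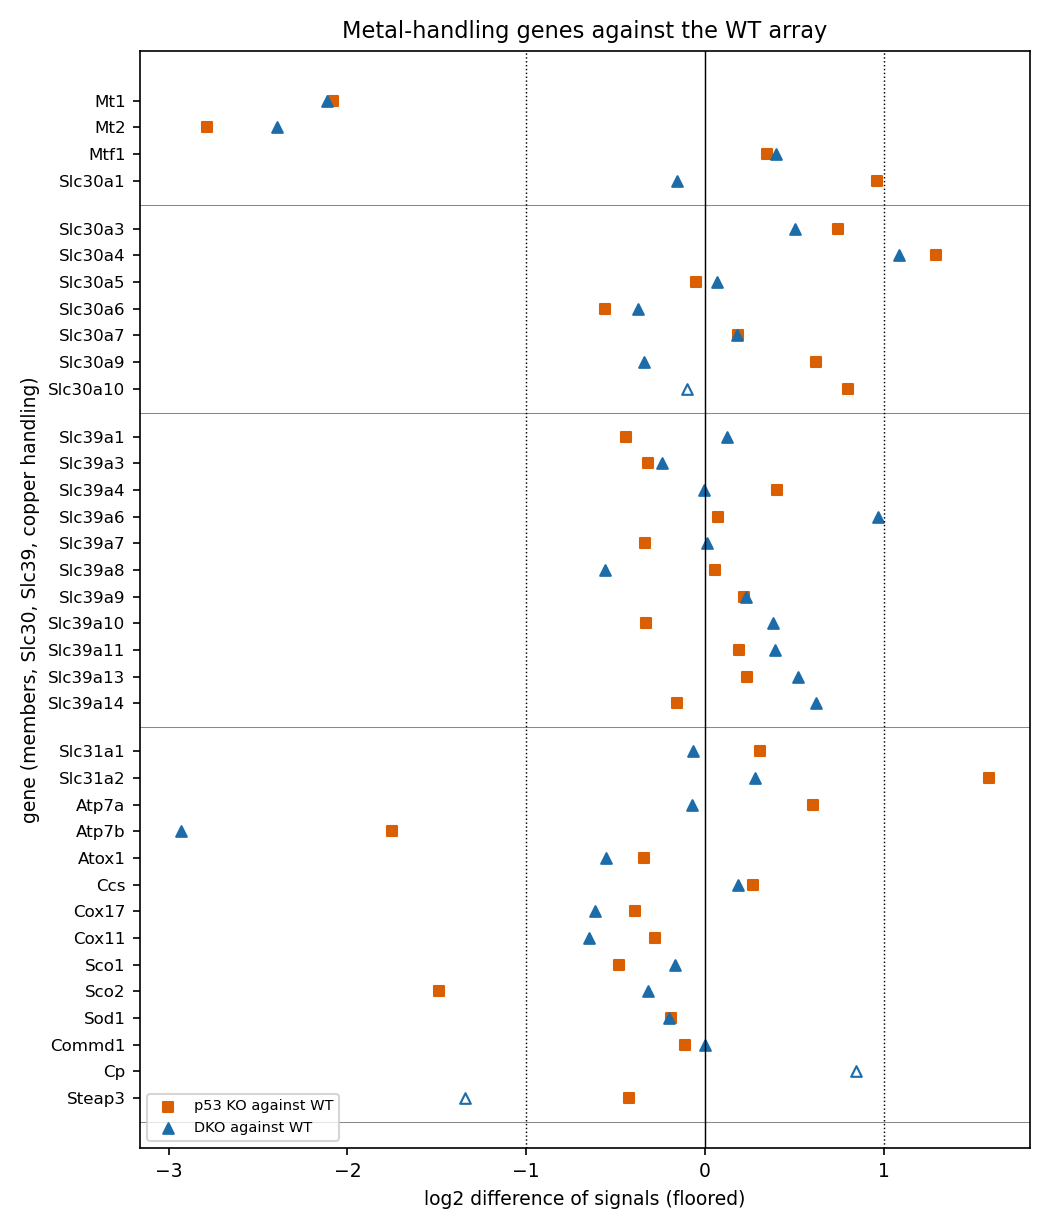
Log2 difference against WT for the 4 genes and for measured genes of the Slc30 family, the Slc39 family and copper handling, with squares for p53 KO, triangles for DKO, open symbols where 1 array was below the floor and dotted lines at 2-fold. Mt1, Mt2 and Atp7b lie beyond the lower line on both arrays, and Slc30a4 lies beyond the upper line on both.

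Metallothioneins also bind copper, and among 15 copper genes, of which 14 were measured, members differed in both directions. For p53 KO against WT 1 was at least 2-fold higher and 2 lower, and for DKO against WT 0 were higher and 2 lower, with medians of -0.23 and -0.18. The shares over all measured genes were 6.51% higher and 3.19% lower on p53 KO and 5.22% and 3.1% on DKO, and the medians 0 and 0.07. Atp7b, a pump that exports copper, had signals of 1671 on WT, 497 on p53 KO and 219 on DKO (-1.75 and -2.93), the same order of WT and knockouts as Mt1 and Mt2. A further probe set (1421563_at) ran the other way, at 225, 287 and 383, and the remaining one was below the floor. Sco2, a copper chaperone of cytochrome oxidase and a known p53 target, had signals of 589, 210 and 473, low only on the p53 KO array (-1.49 and -0.32). Slc31a2, a copper transporter of internal membranes, was at 201, 607 and 244 (1.59 and 0.28). Steap3, a reductase of iron and copper and another known p53 target, was at 280, 209 and 31.3, lower on DKO by at least 1.34 on the log2 scale. A further Steap3 probe set (1430355_a_at) ran the other way, at 82.9, 58.2 and 120, over the floor only on DKO. Cox17, a mitochondrial copper chaperone, had differences of -0.39 and -0.61, and Sod1, the copper and zinc superoxide dismutase, had differences of -0.19 and -0.20.

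Of 6 other known Mtf1 targets, 5 were measured, and by their main probe sets 0 were at least 2-fold different from WT on either knockout array. Of all measured genes 9.7% and 8.31% were, so that 0 of 5 is near the background. Gclc, an enzyme of glutathione synthesis, had signals of 2033, 2575 and 1172. Ndrg1 had signals of 4042, 3391 and 7686 by its main probe set. Another Ndrg1 probe set (1450977_s_at) was at 251, 71.8 and 235, lower on p53 KO than on WT by at least 1.19. Selenow, a small selenoprotein, was lower on p53 KO at 3750 against 6312 on WT (-0.75), with 5582 on DKO. Between the knockouts, DKO was lower than p53 KO for Gclc (-1.14) and higher for Ndrg1 (1.18). Further probe sets gave -0.99 for Gclc, and 0.82, 0.33, 0.83 and at least 1.09 for Ndrg1.

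Other inducers of metallothioneins were read through lists of genes known to respond to them. Of 12 glucocorticoid response genes, 3 were at least 2-fold higher on p53 KO than on WT and 2 on DKO, and 0 were lower by that measure, with medians of -0.01 and 0.12. Over all measured genes 6.51% were higher on p53 KO and 5.22% on DKO by that measure, and 3.19% and 3.1% lower. Klf9, a direct glucocorticoid target, was lower on both knockouts at 6247, 4306 and 3937 (-0.54 and -0.67), and its further measured probe sets were at -0.99 and -0.80 and at -1.17 and -0.34. Tsc22d3, another direct target, named after its values were seen, was at 611, 629 and 598 by its main probe set, but at 150, 342 and 327 (1.19 and 1.12) and at 227, 358 and 470 (0.66 and 1.05) by others. The list thus held genes in both directions. Nr3c1, the glucocorticoid receptor gene, was at 2518, 2166 and 2665, and Nfkbia, an inhibitor of NF-kB, at 13064, 17567 and 14741. The genes past 2-fold were Sgk1 (1.62), Cebpd (1.46) and Dusp1 (1.44) on p53 KO and Dusp1 (2.18) and Ddit4 (1.18) on DKO, and Dusp1 and Ddit4 are also general stress genes. A further Cebpd probe set was at -0.14 on p53 KO. Of 11 Nrf2 response genes on the array, 10 were measured, with 1 at least 2-fold higher on p53 KO, namely the haem-degrading enzyme Hmox1 at 56.7 on WT and 390.3 on p53 KO (at least 1.82). By any amount, 6 were higher and 4 lower on p53 KO than on WT, with a median of 0.16. On DKO 2 were at least 2-fold lower, Gclm (-1.36) and Nqo1 (-1.08), and the list median was -0.53. Nqo1 was also lower on p53 KO (-0.68). Nfe2l2, which encodes Nrf2 itself, was lower on both knockouts at 4731, 2952 and 2523 (-0.68 and -0.91). Of 10 measured heat shock genes, 1 was at least 2-fold lower on p53 KO, Hspe1 (-1.26), and 1 at least 2-fold higher on DKO, Hspa1b (1.22). The medians were -0.21 and -0.16. Further Hspa1b probe sets were at 0.82 and 1.31 on DKO, and a further Hspe1 probe set was at -0.69 on p53 KO. Hsp90aa1 was at -0.20 on p53 KO by its main probe set but at -1.37 by another (1426645_at).

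The genes whose differences from WT were nearest to those of Mt2 were named by Euclidean distance over both log2 differences, among 7708 other genes whose brightest array reached 448.4. With 3 arrays and a shared WT array this likeness rests on 2 differences per gene. They were Hpn, a serine protease gene (-2.72 and -2.31), the nucleoside diphosphate kinase gene Nme1 (-2.41 and -2.26), the lectin gene Zg16 (-3.28 and -2.45), the noncoding Pvt1 (-2.32 and -2.79) and Ccdc68, for which p53 KO was below the floor (at least -2.28, and -1.98). Mt1 came next at place 6, at a distance of 0.76. Nearest to Mt1 were Fzd7, a Wnt receptor gene (-2.07 and -2.06), Rap1gap, a GTPase activator gene (-1.98 and -1.93), the elastase gene Cela1 (-1.84 and -2.07), Ccdc68 and the known p53 target Zmat3 (-1.86 and -2.28), and Mt2 was at place 31.

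Markers of other cell types moved between the same arrays, and their part in the metallothionein values was not tested. Of 10 measured erythroid markers, 2 were at least 2-fold higher and 1 lower on p53 KO than on WT, and 7 were lower on DKO, with list medians of -0.28 and -1.73. The shares over all measured genes were 6.51% higher and 3.19% lower on p53 KO and 3.1% lower on DKO. The summed signal of erythroid markers was 109454 on WT, 112393 on p53 KO and 32975 on DKO. On p53 KO the sum joins members of opposite direction, with 4 higher and 6 lower than on WT, whereas all 10 were lower on DKO. Car1, a carbonic anhydrase gene, was lower on both knockouts at 25815, 9638 and 5778 (-1.42 and -2.16), as Mt1 and Mt2 were, while Alas2 and Epb42 were higher on p53 KO by 2.68 and 2.44. All 10 monocyte and macrophage markers were higher on p53 KO than on WT, 8 of them at least 2-fold, and the summed signal was 23088, 58670 and 24354. All 12 granulocyte markers were higher on p53 KO than on WT, 7 of them at least 2-fold, and they summed to 111376, 215598 and 110423. On DKO 5 were higher than on WT, among them Elane (1.53) and Ctsg (1.54). The other 7 were lower, among them Camp (-1.19) and Ltf (-1.16). The 9 measured B cell markers were all higher on p53 KO than on WT, 8 of them at least 2-fold, and summed to 2183, 8137 and 3323. The 8 measured megakaryocyte and platelet markers were also all higher on p53 KO, 5 of them at least 2-fold, and summed to 4216, 12919 and 7309.

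Stem and progenitor markers were read as well, though signals over the floor cannot establish that the cells are LSK cells. All 10 on the array were over the floor on all 3 arrays, with a summed signal of 19043 on WT, 16420 on p53 KO and 30571 on DKO, and Kit, a receptor that defines LSK cells, was at 4996, 2522 and 4873. Ly6a, the other positive marker of the gate, was not analysed here. On the WT array the erythroid (109454) and granulocyte (111376) markers had higher summed signals than the stem and progenitor markers. Sums over different genes do not measure shares of cells. Of 10 hepatocyte markers 6 reached the floor on at least 1 array, and Apoa1, Ttr, Ahsg and Fgb did not. Alb was at 127, 188 and 219, Apoa2 at 111, 119 and 205, Serpina1c at 46.6, 174 and 187, Cps1 at 108, 105 and 290.2, and Tat at 115, 52.4 and 28.1. Hp, which neutrophils also make, gave most of the summed signal of 3664, 12212 and 3555. Of 10 stroma and endothelium markers 6 were measured, and Col1a1, Col3a1, Cdh5 and Lepr were below the floor throughout. Vcam1 was higher on p53 KO by 2.35 and Cxcl12 by 1.03, Pecam1 was at 109, 89.3 and 221, and the list summed to 1504, 4063 and 1941. The part of these cell types in the metallothionein values was not tested.

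**Figure D5:**
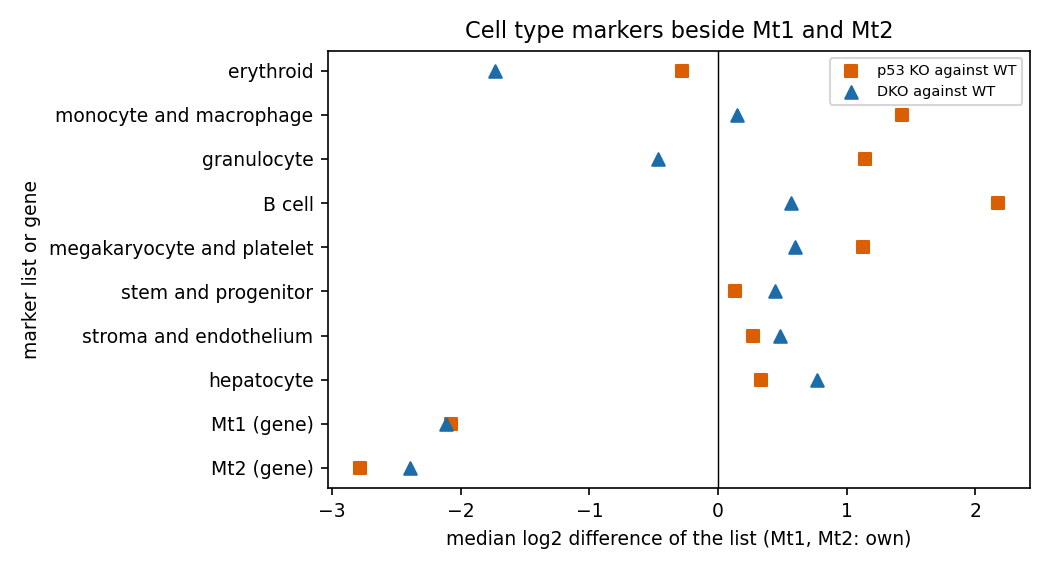
Median log2 difference against WT over the measured members of each marker list, with squares for p53 KO and triangles for DKO, and the gene's own differences for Mt1 and Mt2 in the lowest rows. Medians were -0.28 and -1.73 for erythroid, 1.43 and 0.15 for monocyte, and 0.13 and 0.45 for stem and progenitor markers, and Mt1 (-2.08 and -2.11) and Mt2 (-2.78 and -2.39) lie at the far left.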

How the data were processed

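Signal intensities on a linear scale were deposited by the authors for 45101 probe sets on each of 3 arrays, made with GCOS and MAS5 per the submitters' processing notes, with no version stated. The 2% trimmed mean was 500 on each array, so global scaling was already present. No detection call was used, and no genome build is given in the sources used here.

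Symbols came from the platform annotation, updated by Entrez ID through the RefSeq table (GRCm38.p6) for 34754 probe sets. Of all probe sets 34958 carried 1 symbol, 932 several and 9211 none. No probe set of several genes named a member.

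Signals below the median of all signals (110.4) were set to it, and log2 was taken. Of the probe sets annotated to 1 gene, that with the highest mean signal stood for it. "At least" marks a difference in which 1 array was below the floor. No test was possible with 1 array per genotype. Members and lists were chosen with earlier results of these data known. Named were all members, some of the list genes, 3 adjoining genes on each side and the 5 nearest genes to Mt2 and Mt1. List genes were taken mainly from those at least 2-fold different in a comparison or among the 4 brightest. Not all such list genes are named. The calculation was tested on simulated data.

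Alternatives were rescaling, quantile normalization, cyclic loess (limma 3.58.1, 3 iterations), floors at the 25th and 75th percentiles, a pseudocount of 32, all probe sets averaged, unique probe sets, and thresholds of 1.5-fold and 3-fold. Python 3.11.15 and pandas 2.3.3 were used. The number of arrays limits the precision.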

Additional observations from a re-analysis of the deposited data

How the results depend on the processing

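A value counted as moved when it shifted by more than the robust SD between probe sets of a gene (0.30 to 0.36), and a count when it changed by over 1.5 times. Of 120 recomputed values 104 did neither, a count that includes settings that could not change a value. Mt2 ranged from -2.78 to -2.73 for p53 KO against WT and from -2.39 to -2.35 for DKO against WT under 8 settings. Rescaling, both floors, averaging and unique probe sets could not change Mt2, which has 1 probe set with signals above both floors. Only quantile normalization, cyclic loess and the pseudocount could. Mt1 kept its values to within the spread in 6 of 7 settings, of which rescaling and both floors could not change them. Averaging all probe sets gave -1.04 and -1.06, because the Mt1 probe set below the floor adds 0 to the mean, and with probe sets unique to a transcript Mt1 had no measured value. The same averaging moved Mtf1 to -0.05 for DKO against WT. It moved Slc30a1 to 0.48 on p53 KO and 0.29 on DKO when set against WT, and to -0.19 between the knockouts.

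Zinc transporters at least 2-fold different numbered 1 on p53 KO and 1 on DKO against WT, and 0 between the knockouts. A floor at the 75th percentile gave 0 for both comparisons with WT. A floor at the 25th percentile gave 2 on DKO against WT and 2 between the knockouts, and a pseudocount of 32 gave 1 for the latter. At 1.5-fold there were 4, 3 and 6 in the same order, and at 3-fold 0 in both comparisons with WT. The floor at the 75th percentile (448.4) lay above the WT signal of Slc30a4, which was 280. The cause of the other changes with floor or pseudocount was not tested.

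Over all genes DKO against WT gave 657 higher and 390 lower, but 462 and 473 after quantile normalization and 432 and 487 after cyclic loess. No paired analysis was possible because each genotype has 1 array, and none could be left out.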

Other observations

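Iron handling, a list chosen after values were seen, had 13 of 15 genes measured on these arrays. On DKO against WT 7 were lower by 2-fold or more, beside 3.1% of all measured genes, and the median was -1.10. On p53 KO against WT 2 were higher and 1 lower, beside 6.51% and 3.19%, with a median of 0.21. The transferrin receptor gene Tfrc had signals of 8115 on WT, 16067 on p53 KO and 2999 on DKO. The iron exporter gene Slc40a1 was at 5392, 7359 and 1575, and Slc25a37, which brings iron into mitochondria, at 3264, 14017 and 2592. Each of these genes was highest on p53 KO and lowest on DKO, whereas Mt1 and Mt2 were highest on WT. The log2 difference from WT was small for Slc40a1 on p53 KO (0.45) and for Slc25a37 on DKO (-0.33). Tfr2, which encodes a further transferrin receptor, was lower on both knockouts, at 12964, 5547 and 5679 (-1.22 and -1.19). Several of these genes are strongly expressed in erythroid cells, and the erythroid marker medians on the same arrays were -0.28 and -1.73. Their part in the iron values was not tested.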
